A study of Mus musculus and Homo sapiens with 12 samples.

Results

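The 10 mouse genes Lgr5, Ascl2, Smoc2, Sox9, Lrig1, Ephb2, Ephb3, Prom1, Bmi1 and Msi1, which mark intestinal stem cells and the crypt, were followed through CUT&Tag maps of histone butyrylation and acetylation in mouse large intestine. They were chosen by name, out of 49939 genes on the numbered chromosomes, X and Y of the RefSeq table of GRCm38, 21883 of them protein-coding. Each gene was taken with 10 kb on either side, and every listed region that overlapped this window was counted as its own. In CUT&Tag, an antibody against a histone mark brings a transposase to the chromatin, and the transposase inserts sequencing adapters into the nearby DNA.

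The 8 libraries analysed were 2 replicates for each of butyrylated lysine 18 of histone H3 (H3K18bu), butyrylated lysine 12 of histone H4 (H4K12bu), and the acetyl marks of the same residues (H3K18ac and H4K12ac). The tissue came from male CETP-ApoB-100 transgenic mice, 2 per condition, whose age is not given in the sources used here and which the methods also call ApoE-deficient in one place. The 4 butyryl libraries were labelled as from mice on a high fat, high sucrose diet with 5% arabinoxylan, a dietary fibre, and the 4 acetyl libraries as from mice on the high fat, high sucrose diet. The mark and the diet therefore cannot be told apart, and the study's methods can also be read as giving arabinoxylan to every mouse of the high fat, high sucrose group. The only group that the methods call a control was on a low fat diet. The titles of the acetyl libraries carry the abbreviation cnt, although their labels give the high fat, high sucrose diet. Libraries of the same diet may come from the same mouse. The tissue label reads as colon epithelium, whereas the methods describe the whole dissected large intestine, in which stem cells are a small part. In such bulk tissue, fewer cells of a type and less of a mark per cell cannot be told apart.

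Intestinal crypts hold dividing stem cells at their base, which are kept in that state by Wnt ligands and R-spondins of the niche and whose daughters differentiate as they move towards the lumen. Butyrate is made in the colon by microbes that ferment fibre and is used as fuel mainly by the differentiated cells that line the lumen. Acetylation of histone lysines is a mark of active promoters and enhancers, and butyrylation is a longer acyl group on the same residues.

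The lists differed greatly in length and in local background, and this bears on every value below. The H3K18bu lists held 60776 and 50645 regions, and the H4K12bu lists 50909 and 96332. The H3K18ac lists held 298592 and 298390 regions, and the H4K12ac lists 299480 and 297745, near the limit of 300000 rows that the authors set. The pileup, which is the number of extended reads over the summit of a row, was 1 in 89.2% to 91.4% of the butyryl rows. It was 1 in 72.1% and 52.0% of the H3K18ac rows, and in 52.8% and 12.8% of the H4K12ac rows. In each acetyl list all rows of pileup 1 had the lowest local background of that library, so such a row was listed only where the surrounding signal was low. The shortest rows of pileup 1 were 73 bases long in every list. Of the butyryl rows of pileup 1, 78.9% to 79.9% were longer, as were 23.1% to 53.5% of those of the acetyl lists, so a pileup of 1 is not a count of 1 read. Neighbouring rows often lay close together, and merging rows up to 200 bases apart would shorten the butyryl lists to between 46180 and 85773 regions and the acetyl lists to between 213741 and 245581. The lists hold no read counts, and the number of reads behind each library is unknown.

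At the 10 genes together, the butyryl lists held 280 regions, of which 255 had a pileup of 1, and the acetyl lists held 718, of which 233 had a pileup of 1. Every member had a region in at least 3 of the 4 butyryl libraries and in all 4 acetyl libraries. Of protein-coding genes, 63.3% and 58.0% had a region in the H3K18bu libraries and 66.5% and 78.1% in the H4K12bu libraries. In the single acetyl libraries, 81.5% to 90.8% of them had one. The windows of the members were long, with a median of 116.2 kb against 37.17 kb over protein-coding genes, so they could collect more regions. Per 100 kb of window, the median member held 4.95 and 4.78 H3K18bu regions and 4.64 and 10.6 H4K12bu regions in replicates 1 and 2, where the median protein-coding gene held 2.53, 1.78, 2.76 and 5.47. With a pileup of at least 2, these medians were 0, 0, 0 and 0.58 at the members and 0 in all 4 butyryl libraries at protein-coding genes. Over all listed acetyl regions, the median member held 17.1 and 16.6 H3K18ac regions and 14.7 and 15.5 H4K12ac regions per 100 kb. The median protein-coding gene held 15.5, 10.8, 11.2 and 15.3 in the same order. Regions with a pileup of 1 made up most of the butyryl regions at all 10 genes, as the bars of regions by library show.

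**Figure D1:**
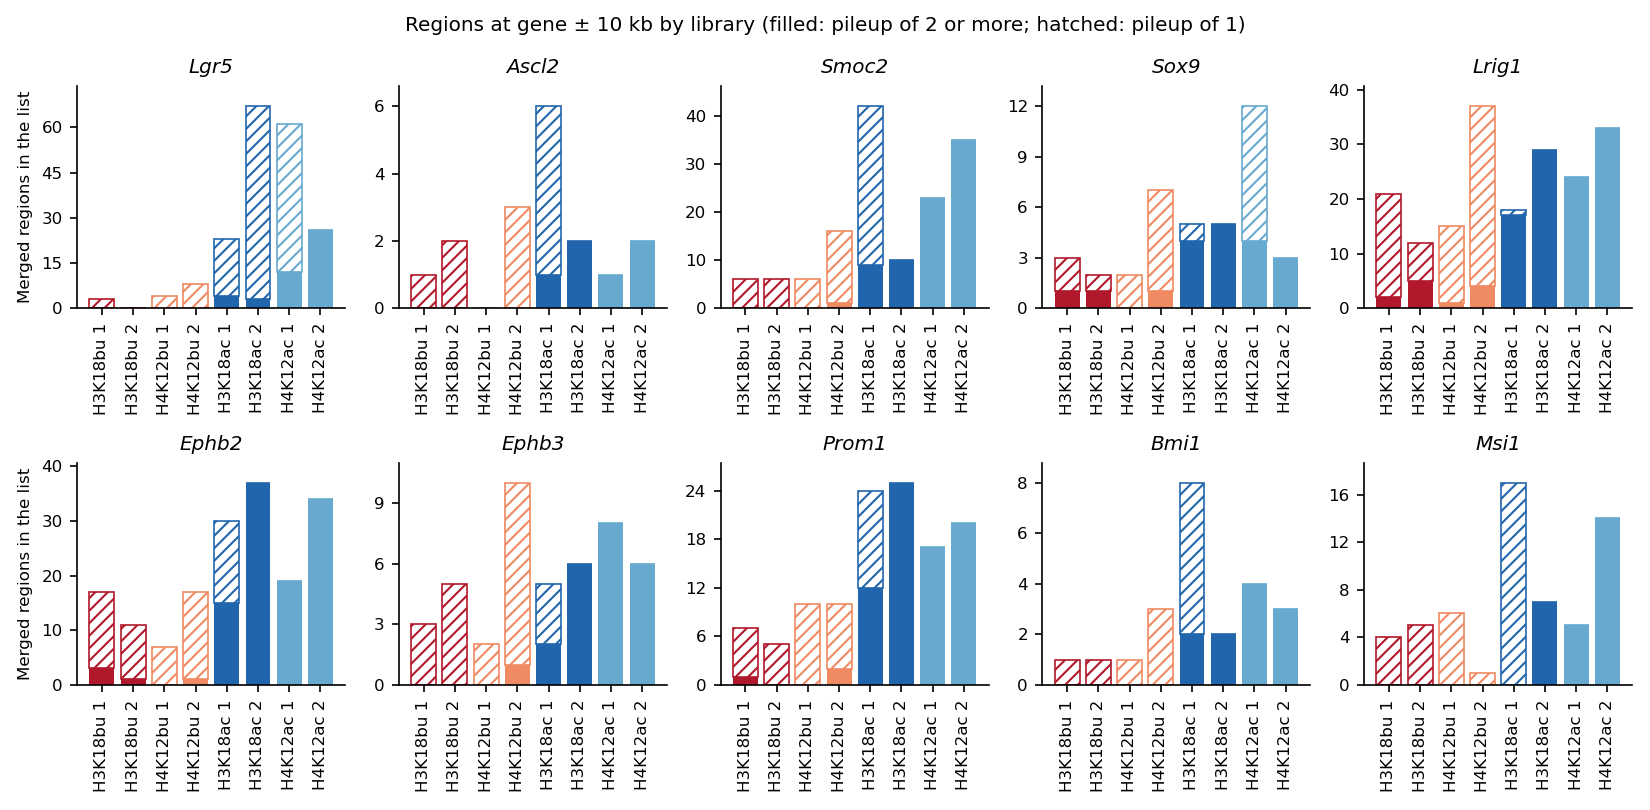
Number of merged regions within 10 kb of each gene (vertical axis, scaled separately for each gene) in each of the 8 libraries (horizontal axis, mark and replicate). Filled parts are regions with a pileup of 2 or more and hatched parts regions with a pileup of 1, and hatching fills most of the red and orange butyryl bars and most of the Lgr5 bars in 3 acetyl libraries.

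Lgr5, a receptor for R-spondins that marks the cycling stem cells at the crypt base, lies at chr10:115450314-115587780. It had 3 and 0 H3K18bu regions, 4 and 8 H4K12bu regions, 23 and 67 H3K18ac regions, and 61 and 26 H4K12ac regions in replicates 1 and 2. All 15 butyryl regions had a pileup of 1, and the second H3K18bu library had no row anywhere in the window. Of the 177 acetyl regions, 132 (74.6%) also had a pileup of 1, the largest share among the 10 genes. With a pileup of at least 2, the acetyl libraries kept 4, 3, 12 and 26 regions, and no butyryl library kept any. The single butyryl region found in both replicates was an H4K12bu region at chr10:115587429-115587605, at the end of the gene with the higher coordinate, with a pileup of 1 in both. At this end of the gene the acetyl rows were higher, with pileups of 2 and 4 for H3K18ac and of 4 in the second H4K12ac library.

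Ascl2, a basic helix-loop-helix factor that controls stem cell identity downstream of Wnt, lies at chr7:142966822-142969264 and has the shortest window, 22.4 kb. It had 1 and 2 H3K18bu regions, 0 and 3 H4K12bu regions, 6 and 2 H3K18ac regions, and 1 and 2 H4K12ac regions. All 6 butyryl regions had a pileup of 1, and none was found in both replicates of a butyryl mark. The highest acetyl pileups were 2 in 3 libraries and 4 in the second H4K12ac library, so that acetyl signal was also close to the limit of these lists.

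Smoc2, a secreted matrix protein of the stem cell signature, lies at chr17:14279490-14404790. It had 6 and 6 H3K18bu regions, 6 and 16 H4K12bu regions, 42 and 10 H3K18ac regions, and 23 and 35 H4K12ac regions. Of the butyryl regions, 33 of 34 had a pileup of 1, and H3K18bu had no region in both replicates. H4K12bu had 2 such regions, of which that at chr17:14279216-14279531, at the lower end of the gene, lay where H3K18ac had pileups of 5 and 2. This region also overlapped the gene model Gm52280, so it cannot be assigned to Smoc2 alone. The highest acetyl pileup at Smoc2 was 7, in the gene body in the second H4K12ac library.

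Sox9, a transcription factor of the HMG box family that is expressed in the lower crypt, lies at chr11:112782210-112787757. It had 3 and 2 H3K18bu regions, 2 and 7 H4K12bu regions, 5 and 5 H3K18ac regions, and 12 and 3 H4K12ac regions. The strongest row of any butyryl library at the 10 genes by −log10 p was the H3K18bu row of replicate 1 at chr11:112781816-112782279, over the lower end of the gene, with a pileup of 4, a −log10 p of 7.40 and a fold of 4.60 relative to its local background. Only 1.08% of protein-coding genes had a row as strong in that library. Replicate 2 of H3K18bu had no row there, and its strongest row, with a pileup of 2, lay within the gene at chr11:112784837-112785334. Rows of the second H3K18ac library, with a pileup of 4, and of both H4K12ac libraries, with a pileup of 2, overlapped the strongest H3K18bu row. The second H3K18ac library also had a row with a pileup of 5 at chr11:112781192-112781264. A region in both H3K18bu replicates was found at chr11:112782799-112783117, with a pileup of 1 in both, and one in both H4K12bu replicates at chr11:112788564-112788772, also with a pileup of 1 in both.

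Lrig1, a transmembrane inhibitor of ErbB receptors that marks stem cells of the colon, lies on the reverse strand at chr6:94604529-94700298. It had 21 and 12 H3K18bu regions, 15 and 37 H4K12bu regions, 18 and 29 H3K18ac regions, and 24 and 33 H4K12ac regions. Here the butyryl and acetyl libraries overlapped, and the highest count came from an H4K12bu library. Only 1 of its 104 acetyl regions had a pileup of 1, against 73 of its 85 butyryl regions. Per 100 kb of window, Lrig1 had 18.4 ± 9.63 butyryl regions (SD, n = 4), the highest mean of the 10 genes, and Lgr5 had 2.38 ± 2.1, the lowest. Between them came Sox9 with 13.7 ± 9.32, Ephb3 with 12.9 ± 9.20 and Ascl2 with 6.68 ± 5.75. Prom1 had 6.23 ± 1.91, Ephb2 6.23 ± 2.35, Smoc2 5.85 ± 3.44, Bmi1 5.07 ± 3.38 and Msi1 3.43 ± 1.85 (SD, n = 4). Neighbours in this order differed by less than the larger of their SDs over the 4 libraries, whose lists were of unequal length, and Ephb3 and Ascl2 differed by more than the SD of Ascl2. The order did not hold in every library. In the second H3K18bu library Ephb3 had 12.9 regions per 100 kb and Lrig1 10.4. In the first H4K12bu library Ascl2 had 0 and Lgr5 2.54, and in the second Msi1 had 0.857 and Lgr5 5.08. Counting only regions with a pileup of at least 2, Sox9 had the highest mean per 100 kb, 2.94 ± 1.96, and Lrig1 had 2.59 ± 1.58 (SD, n = 4). Lgr5, Ascl2, Bmi1 and Msi1 were then all at 0.

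One stretch inside Lrig1, about 40 kb from its start site, had a row in all 8 lists. The H3K18bu region in both replicates was chr6:94659851-94660224, with a pileup of 2, a fold of 2.91 and a −log10 p of 5.39 in each library. The H4K12bu region was chr6:94659708-94660212, with a pileup of 1 in replicate 1 and of 4 in replicate 2, where the −log10 p was 7.07. The H3K18ac region was chr6:94659790-94660407, with a pileup of 8 in both replicates. H4K12ac had pileups of 4 and 7 at chr6:94659918-94660268. By −log10 p it was the strongest stretch of Lrig1 in 7 of the libraries, and the exception was the first H4K12bu library. Among all regions found in both replicates, 10.3% of the 8319 H3K18bu regions and 9.13% of the 9920 H4K12bu regions had a row in all 8 lists, and at the 10 genes this held for 1 of 7 and 1 of 11, both of them this stretch of Lrig1.

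**Figure D2:**
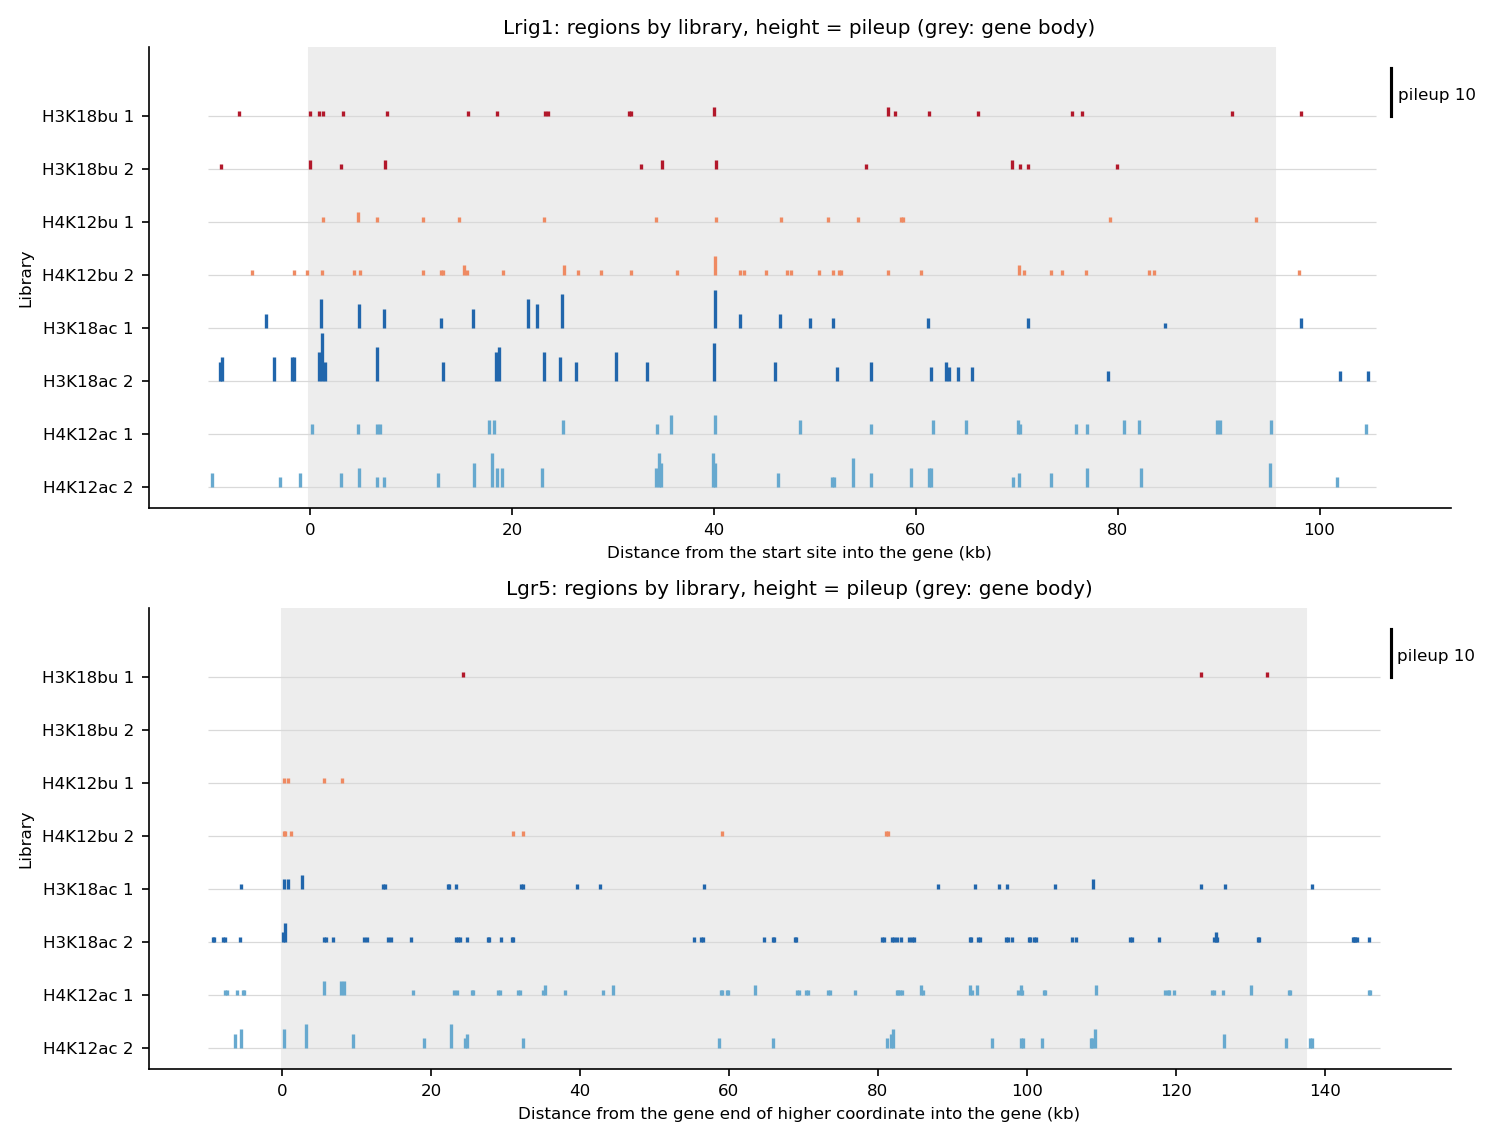
Regions at Lrig1 (top) and Lgr5 (bottom) in the 8 libraries, placed by distance in kb from the Lrig1 start site or from the end of Lgr5 with the higher coordinate, with heights in proportion to the pileup (scale bar, 10) and the gene body shaded. All 8 libraries have a line about 40 kb into Lrig1, whereas the butyryl lines at Lgr5 are few and all of pileup 1.

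The start site of Lrig1 differed from that stretch. H3K18bu had a region in both replicates at chr6:94699957-94700362, with pileups of 1 and 2, and a row of the second H4K12bu library overlapped it with a pileup of 1. No H3K18ac row overlapped this region, and the only acetyl row was one of pileup 2 in the first H4K12ac library. The nearest H3K18ac region in both replicates lay within 1 kb of the start site, inside the gene, at chr6:94698941-94699260, with pileups of 6 and 10.

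The promoters of Lrig1, Ephb3 and Prom1 were the only matched promoters of the members with a row of a butyryl library over them. They are shown because the butyryl reads there can be set against the sequence they cover. Each runs from 250 bases before to 50 bases after a RefSeq start site of GRCm38.p6 and is written 5′ to 3′ on the strand of the gene. Promoters of 6 members were matched, with a second start for Prom1, and those of Lgr5, Smoc2, Sox9 and Msi1 were not matched. Capitals mark matches to GGGCGG or its reverse CCGCCC (the GC box) and to CAGCTG (an E box bound by factors of the ASCL2 type). The other letters searched were CTTTGA or TCAAAG (TCF/LEF core) and TTTATG or CATAAA (CDX core), on both strands.
Lrig1 promoter, chr6:94700096-94700395, reverse strand: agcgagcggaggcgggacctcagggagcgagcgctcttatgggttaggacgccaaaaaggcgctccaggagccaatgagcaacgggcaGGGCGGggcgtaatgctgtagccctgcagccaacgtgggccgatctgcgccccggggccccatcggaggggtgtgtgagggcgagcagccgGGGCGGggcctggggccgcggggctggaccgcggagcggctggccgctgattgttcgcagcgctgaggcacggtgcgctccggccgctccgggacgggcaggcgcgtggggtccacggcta
Ephb3 promoter, chr16:21204545-21204844, forward strand: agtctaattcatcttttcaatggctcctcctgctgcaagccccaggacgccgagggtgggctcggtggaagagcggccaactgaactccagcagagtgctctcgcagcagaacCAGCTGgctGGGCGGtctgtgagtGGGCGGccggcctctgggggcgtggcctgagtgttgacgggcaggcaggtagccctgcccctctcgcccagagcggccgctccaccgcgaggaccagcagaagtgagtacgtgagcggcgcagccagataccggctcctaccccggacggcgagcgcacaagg
Prom1 promoter, chr5:44101687-44101986, reverse strand: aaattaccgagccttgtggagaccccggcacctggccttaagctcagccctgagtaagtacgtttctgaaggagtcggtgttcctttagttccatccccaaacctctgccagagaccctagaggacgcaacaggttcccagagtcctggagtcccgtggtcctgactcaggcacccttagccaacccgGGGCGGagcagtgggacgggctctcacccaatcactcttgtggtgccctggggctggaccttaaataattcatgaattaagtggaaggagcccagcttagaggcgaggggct

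The Lrig1 promoter held 35 CpG dinucleotides in 300 bases, against a median of 7 over all RefSeq promoters of this length, and 6.95% of them held as many. Its GC content was 73.0%. The Ephb3 promoter held 23 CpG and the Prom1 promoter 10. GC boxes were found 2 times in the Lrig1 promoter, 2 times in that of Ephb3 and 1 time in that of Prom1, and 35.7% of all promoters held this motif. The E box was found 1 time, in the Ephb3 promoter, and in 16.3% of all promoters. The TCF/LEF core, held by 16.0% of all promoters, and the CDX core, held by 11.9%, were in none of the 3 windows. Over the Lrig1 window the pileups were 1 and 2 for H3K18bu and 1 in the second H4K12bu library, with no acetyl row. Over the Ephb3 window they were 1 in the second H3K18bu library, 2 in the second H3K18ac library and 2 in the first H4K12ac library. Over the Prom1 window they were 1 in the second H4K12bu library, 5 and 8 for H3K18ac and 5 in the second H4K12ac library. The Lrig1 window was thus the only one of the 3 with more butyryl than acetyl rows, at pileups of 1 and 2.

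Ephb2 and Ephb3 are receptor tyrosine kinases for ephrin-B ligands, which position cells along the crypt and are induced by Wnt signals. Ephb2, on the reverse strand at chr4:136647536-136836326, had 17 and 11 H3K18bu regions, 7 and 17 H4K12bu regions, 30 and 37 H3K18ac regions, and 19 and 34 H4K12ac regions. All 4 acetyl libraries lay above all 4 butyryl libraries, with the narrowest gap between 17 and 19 regions. Its H3K18bu region at chr4:136804355-136804684 had a pileup of 2 in both replicates and lay where the second H3K18ac library had a pileup of 6, and it also overlapped the gene model Gm52708. A second H3K18bu region, chr4:136830944-136831208, had a pileup of 1 in both replicates and lay over an H3K18ac region with pileups of 5 and 7. Neither lay within 1 kb of the start site.

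Ephb3, on the forward strand at chr16:21204620-21223309, had 3 and 5 H3K18bu regions, 2 and 10 H4K12bu regions, 5 and 6 H3K18ac regions, and 8 and 6 H4K12ac regions. The groups overlapped, and the highest count was again that of the second H4K12bu library. In its gene body, H3K18bu had a region in both replicates at chr16:21209405-21209633 with a pileup of 1 in both and no row of any other mark, and H4K12bu had one at chr16:21206434-21206847 with pileups of 1 and 2. The window of Ephb3 overlapped no other gene of the table.

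Prom1, a membrane glycoprotein also known as CD133 that is found on crypt cells, lies on the reverse strand at chr5:43993621-44102047. It had 7 and 5 H3K18bu regions, 10 and 10 H4K12bu regions, 24 and 25 H3K18ac regions, and 17 and 20 H4K12ac regions. All acetyl libraries lay above all butyryl libraries. Rows of both acetyl marks lay near the start site. The H3K18ac region at chr5:44100708-44100858 had pileups of 7 and 8, that at chr5:44101527-44102064 had 5 and 9, and an H4K12ac region at chr5:44100724-44101202 had 6 and 3. There the first H3K18bu library had a row at chr5:44100716-44101283 with a pileup of 3 and a −log10 p of 5.64, which 4.04% of protein-coding genes matched or exceeded in that library. The second H3K18bu library had no row at that place, and the regions found in both replicates of a butyryl mark lay elsewhere, H3K18bu at chr5:43997744-43997947 and H4K12bu at chr5:44105346-44105559.

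Bmi1, a subunit of Polycomb repressive complex 1 that has been used to mark reserve stem cells, lies on the forward strand at chr2:18677018-18686629. It had 1 and 1 H3K18bu regions, 1 and 3 H4K12bu regions, 8 and 2 H3K18ac regions, and 4 and 3 H4K12ac regions. All 6 butyryl regions had a pileup of 1 and none was found in both replicates. Its window also covered parts of Commd3, Gm46725 and Spag6, and the acetyl regions found in both replicates lay over Spag6 for H3K18ac and over Commd3 for H4K12ac. Hence no region of any mark in both replicates lay over Bmi1 itself.

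Msi1, an RNA-binding protein that regulates translation in progenitor cells, lies at chr5:115359059-115455698. It had 4 and 5 H3K18bu regions, 6 and 1 H4K12bu regions, 17 and 7 H3K18ac regions, and 5 and 14 H4K12ac regions. All 16 butyryl regions had a pileup of 1 and none was found in both replicates. The first H3K18ac library had 17 regions, all of pileup 1, so that Msi1 was the one member without an acetyl row of pileup 2 in every acetyl library. The grid of highest pileups sets the members side by side.

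**Figure D3:**
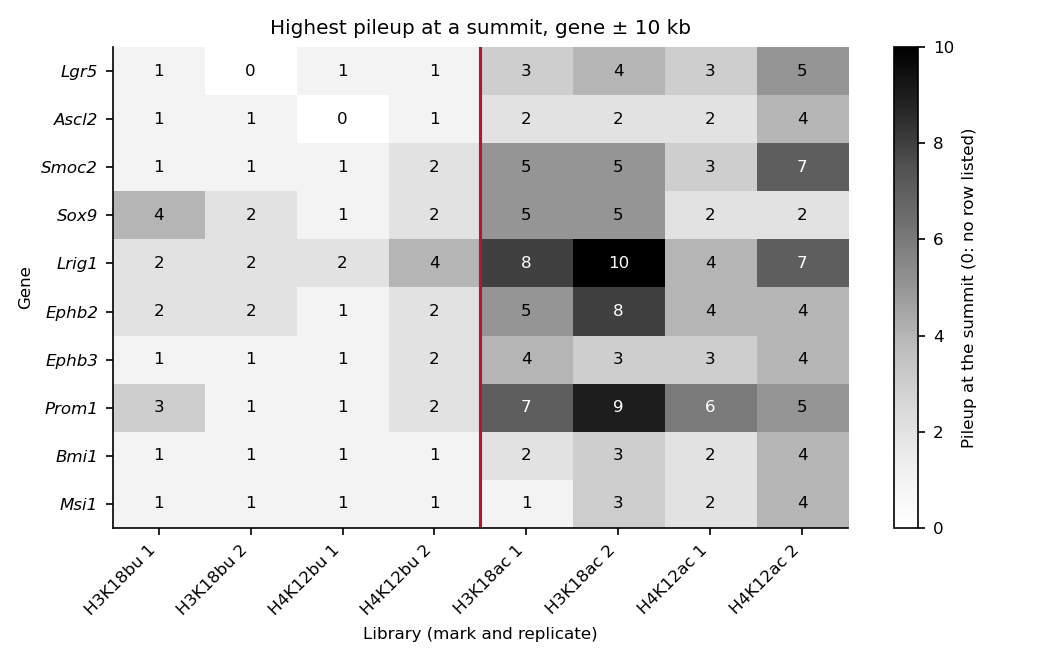
Highest pileup of any row within 10 kb of each gene (rows) in each library (columns, mark and replicate), with butyryl libraries left of the red line and acetyl libraries right of it. Butyryl values reach 4 at Sox9 and Lrig1, and acetyl values reach 10 at Lrig1 and 9 at Prom1.

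The study used the acetyl marks as the reference for the butyryl marks, and the question here was whether the members held fewer or more regions in the butyryl than in the acetyl libraries. With all listed regions, all 4 acetyl libraries lay above all 4 butyryl libraries at 3 of the 10 members, which were Lgr5, Ephb2 and Prom1. This was so at 24.9% of all genes tested, and the reverse, found at no member, at 0.0212%. Lgr5 had 3.75 ± 3.30 regions in the butyryl libraries and 44.25 ± 23.0 in the acetyl libraries (SD, n = 4 each). Ephb2 had 13 ± 4.90 and 30 ± 7.87 regions, and Prom1 had 8 ± 2.45 and 21.5 ± 3.70 regions, in the same order. In the two-sided exact permutation test over 70 assignments of libraries, p was 0.0286 for each of these genes, the smallest the design allows, and 0.115 after Benjamini-Hochberg adjustment over 47102 genes. No gene passed an adjusted p of 0.05 in this test, whereas 11715 genes had an unadjusted p below 0.05, and the test treats libraries that may share a mouse as separate. With rows up to 200 bases apart merged, an alternative chosen after seeing the data, Lgr5 and Prom1 still had all acetyl libraries above all butyryl libraries, and Ephb2 did not (exact permutation p = 0.0571).

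These differences depended on the lengths of the lists. The median difference, butyryl minus acetyl, was −2.75 regions over all genes tested and −5.75 over the members. The windows of these 2 sets were not matched in length. When each list was cut to its 50645 strongest regions, the median over all genes was 0 and 7 of the 10 members had more regions in the butyryl libraries. Lgr5 and Prom1 kept more in the acetyl libraries by 0.75 regions, with exact permutation p of 0.80 and 0.714, and Ephb2 had 2.25 more in the butyryl libraries, with p of 0.457. Ephb3 was then the only member whose libraries did not overlap, with 2.75 more regions in the butyryl libraries (exact permutation p = 0.0286, adjusted p = 1), as was so at 0.449% of all genes, while acetyl libraries lay above at no member and at 0.393% of all genes. The cut kept the whole second H3K18bu list but only a part of the acetyl lists, which held 297745 to 299480 regions. Of the 20 listed butyryl regions at Ephb3, 19 had a pileup of 1. With a pileup of at least 2, Ephb3 had 0.25 ± 0.5 butyryl and 5.5 ± 2.52 acetyl regions (SD, n = 4 each).

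Scaled to 100000 regions of each list, 9 members had more regions in the butyryl libraries and only Lgr5 fewer, with a difference of −9.54 (exact permutation p = 0.0857). The median difference on this scale was 0.0081 over all genes tested and 3.52 over the members. The scale corrects for list length only, and the members had long windows, with a median of 116.2 kb against 37.17 kb over protein-coding genes. Genes of like window length were not counted apart on this scale. The butyryl libraries did not overlap the acetyl libraries at Lrig1, Ephb2, Ephb3 and Prom1, where they had 22.8, 10.2, 5.19 and 5.65 regions more per 100000 (exact permutation p = 0.0286 each, adjusted p = 0.199). All 4 butyryl libraries lay above all 4 acetyl libraries at 8.78% of all genes on this scale, and the acetyl libraries above the butyryl libraries at no member and at 5.58% of all genes. Lgr5 was thus the only member among those 3 with fewer butyryl regions on every scale run, and on the scaled values its difference did not pass the test.

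Counting only regions with a pileup of at least 2 gave the opposite direction to the values per 100000 regions at every member except Lgr5. Lgr5 had fewer butyryl regions in both, with differences of −11.25 and −9.54. With a pileup of at least 2, every acetyl library held more regions than every butyryl library at 9 of the 10 members, all except Msi1 (exact permutation p = 0.0286 each, adjusted p = 0.0656). This was so at 43.6% of all genes tested, whose windows were not matched in length to those of the members. At Lrig1 the butyryl libraries kept 2, 5, 1 and 4 regions and the acetyl libraries 17, 29, 24 and 33. At Sox9 they kept 1, 1, 0 and 1 against 4, 5, 4 and 3. The lowest local background differed with the mark, at 0.0146 in each butyryl library and between 0.0608 and 0.147 in the acetyl libraries, and its part in this result was not tested.

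A region in both replicates of H3K18bu was found at 5 of the 10 members, Sox9, Lrig1, Ephb2, Ephb3 and Prom1, against 20.5% of protein-coding genes. For H4K12bu it was found at 7 members, these 5 with Lgr5 and Smoc2, against 33.7% of protein-coding genes. Both butyryl marks had one at 5 members, against 13.9% of protein-coding genes. The acetyl marks each had one at 8 members, against 58.7% of protein-coding genes for H3K18ac and 61.4% for H4K12ac. The windows of 6 members were 100 kb or longer, and protein-coding genes with such windows had a shared region of H3K18bu in 38.9% of cases, of H4K12bu in 45.7%, of H3K18ac in 82.0% and of H4K12ac in 89.3%. Of these 6 members, 3, 5, 5 and 6 had such a region, and of the 4 members with shorter windows 2, 2, 3 and 2 had one, where the shares were 17.4%, 31.7%, 54.8% and 56.8%. With so few genes these counts are a description.

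When both replicates had to reach a pileup of 2, H3K18bu kept Lrig1 and Ephb2, against 3.83% of protein-coding genes, and H4K12bu kept no member, against 8.33%. H3K18ac kept 7 members and H4K12ac 8, against 45% and 58.2%. The members held 7 shared regions of H3K18bu and 11 of H4K12bu in total. Shared acetyl regions were more numerous, with 25 of H3K18ac and 28 of H4K12ac. How many regions of pileup 1 coincide between replicates by chance was not tested.

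Butyryl regions were also set against the acetyl rows of the same residue. For H3K18bu, 24 of 66 regions in replicate 1 (36.4%, 95% exact interval 24.9% to 49.1%) and 18 of 49 in replicate 2 (36.7%, 23.4% to 51.7%) lay over an H3K18ac row. For H4K12bu, 11 of 53 regions (20.8%, 10.8% to 34.1%) and 27 of 112 (24.1%, 16.5% to 33.1%) lay over an H4K12ac row. Over the whole lists, 38.4% and 40.0% of H3K18bu regions and 35.9% and 33.0% of H4K12bu regions did so. Within the windows of protein-coding genes, 39.0% and 40.6% of the H3K18bu regions lay over such a row, as did 38.4% and 35.4% of those of H4K12bu. Both intervals of H3K18bu held the shares of the whole list and of the protein-coding windows. The interval of the first H4K12bu library lay below both of its shares, and that of the second held the share of the whole list and lay below that of the protein-coding windows. Over both replicates together, the H3K18bu share of 36.5% was 19.1% without the second H3K18ac library, and the H4K12bu share of 23.0% was 9.09% without the second H4K12ac library. The intervals are of the Clopper-Pearson kind and cover counting error only. The difference between the marks was not tested, because no exact p of 0.05 can be had from 2 libraries of each mark.

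**Figure D4:**
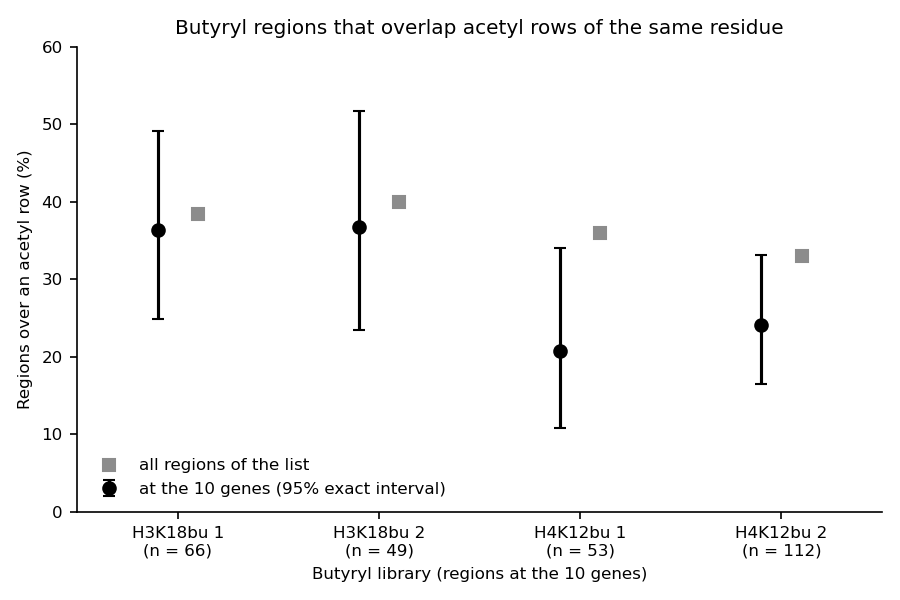
Share of butyryl regions that overlap an acetyl row of the same residue (vertical axis, percent) in each butyryl library (horizontal axis), at the 10 genes (black points with 95% exact intervals) and over the whole list (grey squares). All points lie below the value of the whole list, and only the interval of the first H4K12bu library does not include it. The points of H4K12bu are at 20.8% and 24.1%.

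Among the members, the share was uneven. At Prom1, 8 of 12 H3K18bu regions and 7 of 20 H4K12bu regions lay over acetyl rows, and at Lgr5 7 of 12 H4K12bu regions did. At Smoc2 none of 12 H3K18bu regions did, and at Bmi1 none of 2 and none of 4. Of the regions found in both butyryl replicates, 4 of 7 for H3K18bu and 7 of 11 for H4K12bu lay over an acetyl row, where 76.1% and 69.9% of all regions in both replicates of these marks did.

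Most regions lay inside the genes, and gene bodies also made up most of the summed window length. At Ephb2 the gene body was 188.8 of 208.8 kb, and at Ascl2, with the shortest window, 2.44 of 22.4 kb. Whether regions fell inside genes more often than this length gives was not tested. Regions elsewhere in the gene, more than 1 kb from a start site or, where no start site was matched, from either gene end, made up between 71.4% and 81.1% of the regions at the members in each library. Within 1 kb of a matched start site, H3K18bu had 5 and 3 regions (7.58% and 6.12%), H4K12bu 1 and 6 (1.89% and 5.36%), H3K18ac 7 and 8 (3.93% and 4.21%) and H4K12ac 5 and 6 (2.87% and 3.41%). These percentages are of the regions at all 10 genes, although Lgr5, Smoc2, Sox9 and Msi1 had no matched start site and could not count. Lgr5 alone held 177 of the 718 acetyl regions and 15 of the 280 butyryl regions, so these percentages cannot be compared between marks. The difference between the marks was not tested. The region of H3K18bu at the Lrig1 start site, described above, was the only butyryl region in both replicates within 1 kb of a matched start site.

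A further list of 20 crypt and Wnt-response genes was counted in the same way. The median window of these genes was 54.9 kb. A region in both replicates was found at 7 of them for H3K18bu, 9 for H4K12bu, 18 for H3K18ac and 14 for H4K12ac, where the shares of protein-coding genes were 20.5%, 33.7%, 58.7% and 61.4%. Both butyryl marks had one at 4 of the 20, against 13.9% of protein-coding genes. These were Tcf7l2, a TCF factor that acts with beta-catenin, Cdk6, a kinase that drives entry into S phase, Lgr4, the R-spondin receptor related to Lgr5, and Hopx, a homeodomain protein of reserve stem cells. At Tcf7l2 the highest pileups were 5 and 2 with H3K18bu, 2 and 2 with H4K12bu, 11 and 8 with H3K18ac, and 3 and 4 with H4K12ac. At Cdk6 they were 1 and 2, 3 and 3, 6 and 8, and 5 and 7 in the same order, and at Hopx 2 and 1, 1 and 3, 5 and 4, and 3 and 7. At Lgr4 they were 2 and 1, 1 and 3, 5 and 7, and 4 and 6. Lgr4 had butyryl regions in both replicates of both marks, and Lgr5 of H4K12bu only. Olfm4, a secreted glycoprotein that marks crypt base cells of the human intestine, had no region in both replicates of any mark and no row in any butyryl library. In the test with all listed regions, acetyl libraries lay above butyryl libraries at 6 of the 20 genes, against 24.9% of all genes tested, with a median difference of −8.75 regions against −2.75 over all genes, and 0 of the 20 passed the adjusted p.

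Markers of the cell types that the tissue could hold gave the following counts. Of 11 genes of colon epithelium, 9 had a region in both replicates of H3K18bu, 6 of H4K12bu, 10 of H3K18ac and 8 of H4K12ac, beside the same shares of protein-coding genes (20.5%, 33.7%, 58.7% and 61.4%). Their windows were shorter than those of the stem and crypt genes, with a median of 37.3 kb. At Cdx1, an intestinal homeodomain factor, the highest pileups were 4 and 3 in the H3K18bu libraries, 2 and 4 in the H4K12bu libraries, 9 and 13 with H3K18ac, and 4 and 6 with H4K12ac. Where both replicates had to reach a pileup of 2, H3K18bu kept 5 of the 11 epithelial genes and 2 of the 10 stem and crypt genes, against 3.83% of protein-coding genes. Summed over the epithelial genes, the H3K18bu lists held 73 and 75 regions, the H4K12bu lists 46 and 86, the H3K18ac lists 86 and 111 and the H4K12ac lists 82 and 93. At the stem and crypt genes the sums were 66 and 49, 53 and 112, 178 and 190, and 174 and 176 in the same order, and the difference between the lists of genes was not tested. Of 5 smooth muscle genes, 0 had a region in both H3K18bu replicates and 2 in both H4K12bu replicates, while H3K18ac and H4K12ac had 4 each. Of 5 immune genes, 1 had one for H3K18bu, at Itgam, 0 for H4K12bu, 3 for H3K18ac and 3 for H4K12ac. Enteric neurons and glia had 0, 0, 1 and 3 of 5, and genes of other tissues such as Alb and Ins2 had 0, 0, 1 and 0 of 5. Summed regions at the smooth muscle genes were 4 and 2 with H3K18bu, 13 and 17 with H4K12bu, 57 and 37 with H3K18ac, and 35 and 53 with H4K12ac, and the highest pileup, 11, lay at Tagln in the second H4K12ac library. At the immune genes they were 9 and 12, 4 and 10, 46 and 49, and 55 and 100, and Cd3e was at 0 in all 4 butyryl libraries. Smooth muscle, immune and neural markers thus carried acetyl regions in a tissue labelled epithelial, and the part of these cells in the counts at the members was not tested.

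**Figure D5:**
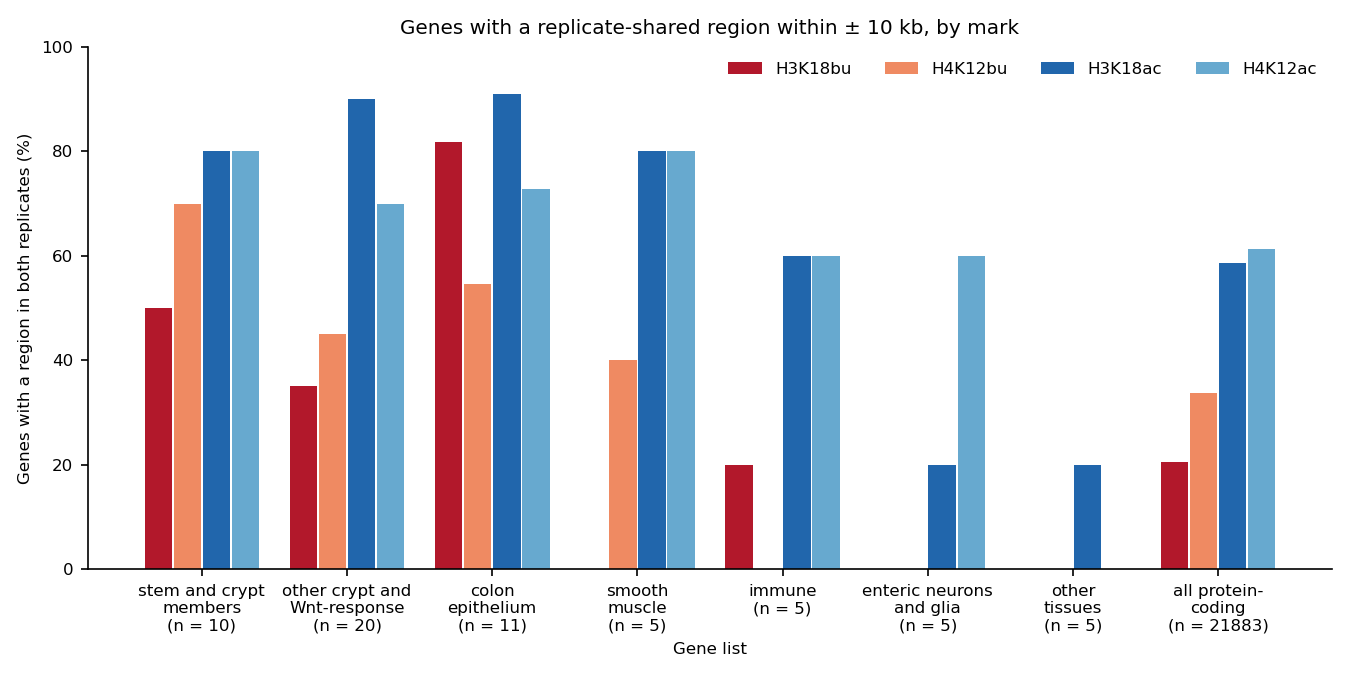
Share of genes with a region in both replicates of a mark within 10 kb (vertical axis, percent), by gene list (horizontal axis, n genes) and mark (colours). The H3K18bu bar is highest for colon epithelium and is at 0 for smooth muscle, enteric neurons and glia, and other tissues, and the stem and crypt genes lie between.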

How the data were processed

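CUT&Tag peak lists of 8 mouse large intestine libraries were used, and the CCD841 cell lists were not analysed here. The authors aligned the reads and called peaks separately for every library, at a p threshold of 0.01 and at most 300000 rows. The submitters' processing notes name the builds hg38 and mm10, bcl2fastq 2.17.1, cutadapt 1.9.1, Bowtie2 2.3.1 and MACS2 2.1.0. The deposited fold is a ratio of pileup to local background of the same library, each plus 1. The authors also deposited the −log10 p and −log10 q of the same test. Pileups were solved from the fold and −log10 p of every row, to within 0.01, and the solver, the exact test and the overlaps were tested on simulated data.

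Overlapping rows of a list were merged to regions. A shared region had a row in both replicates, and an overlap meant at least 1 bp. Genes came from the RefSeq table of GRCm38.p6, the assembly that mm10 is built on, with 10 kb on either side. Both gene ends stood in for the start where no promoter was matched. Region counts of 4 butyryl and 4 acetyl libraries were compared for every gene by a two-sided exact permutation test with Benjamini-Hochberg adjustment. Alternatives were q below 0.05, a pileup of at least 2, no flank, the same number of strongest regions, bases covered, scaling to list length, a replicate block, other overlap definitions, merging of rows up to 200 bases apart and leaving out libraries. All 10 members are named, with other crypt genes that had shared regions of both butyryl marks or of no mark. The members, gene lists and tests were chosen with earlier results of these data known. All steps ran in Python 3.11.15 with scipy 1.17.1, numpy 2.4.6, pandas 2.3.3 and matplotlib 3.10.9.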

Additional observations from a re-analysis of the deposited data

Results flagged for a closer look

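The second H4K12bu library stood apart from the other butyryl libraries at 2 genes. At Smoc2 it had 16 regions where the other 3 libraries had 6 each, and at Bmi1 it had 3 where the others had 1 each. Of the 20 groups of 4 libraries examined, these were the 2 in which 1 library lay far from the rest, and the criterion used (Dixon's) flags about 1 in 20 groups by chance where values are not tied. At both genes the other 3 counts were tied, so that any other count in the remaining library would have met it. This library also had the longest butyryl list, with 96332 regions. With each list held to its 50645 strongest regions, Smoc2 had 6 regions in the other 3 libraries and 4 in this one, and Bmi1 had 1 in each.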

How the results depend on the processing

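The count of members at which acetyl libraries lay above butyryl libraries with an unadjusted exact p below 0.05, 3 of 10, was 2 with q below 0.05, 9 with a pileup of at least 2, 3 without flanks, 4 by bases covered, 2 with rows up to 200 bases apart merged (chosen after seeing the data), and 0 with the same number of strongest regions, with scaling to 100000 regions, and with the residues averaged per replicate number, where p cannot reach 0.05. Leaving out 1 library gave 1 to 4. Without any 1 of the butyryl libraries the count was 1, although all acetyl libraries still lay above the remaining butyryl libraries at 3 members, and at 5 without the second H4K12bu library. The differences at Lgr5 (−41.9 to −39.25 regions) and Ephb2 (−18.3 to −15) then stayed near their values with all libraries. No gene passed the adjusted p in the exact permutation test under any of these settings. With permutation inside replicate numbers as a replicate block the count was 0, since p cannot go below 0.0556. The labels do not say that a number marks a shared mouse. The correlation of the deviations of same-numbered libraries, which does not settle whether the numbers pair them, was −0.002 for H3K18bu with H3K18ac, 0.05 for H4K12bu with H4K12ac, −0.02 between the butyryl and −0.31 between the acetyl marks.

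The difference in regions, butyryl minus acetyl, was no longer below 0 in the following cases. Without flanks it was 0 at Ascl2 and 0.75 at Sox9, and by bases covered 149 bases at Ephb3. With the same number of strongest regions it was 0.50 at Ascl2, 0.75 at Smoc2, 0.25 at Sox9, 3.25 at Lrig1, 2.25 at Ephb2, 2.75 at Ephb3 and 3 at Msi1. Per 100000 regions it was 1.26 at Ascl2, 3.32 at Smoc2, 2.93 at Sox9, 22.8 at Lrig1, 10.2 at Ephb2, 5.19 at Ephb3, 5.65 at Prom1, 0.75 at Bmi1 and 3.72 at Msi1. The 2 scalings by list length change the counts of every gene by construction, and the cause of the other changes was not tested.

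Members with a region in both replicates of H3K18bu numbered 0 with q below 0.05 and 2 with a pileup of at least 2. For H4K12bu they numbered 0 and 0, and 4 with the same number of strongest regions. For H3K18ac they numbered 4 with q below 0.05, 5 without flanks and 5 with the same number of strongest regions, and for H4K12ac 1 with q below 0.05 and 1 with the same number of strongest regions. With 1 library of a mark left out, this count has no value.

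The share of H3K18bu regions over acetyl rows, 36.5% of 115, was 0% of 1 region with q below 0.05, 64.3% with a pileup of at least 2, 34.4% without flanks, 16.0% with the same number of strongest regions, 29.6% with an overlap of at least 0.5 of the shorter region, 7.83% over rows of both acetyl replicates 57.1% for regions in both butyryl replicates and 34.6% with rows up to 200 bases apart merged, and 19.1% to 36.7% with 1 library left out. For H4K12bu, 23.0% of 165, it was 100% of 1 region, 63.6%, 23.2%, 11.1%, 19.4%, 5.45%, 63.6% and 24.5% in the same order, and 9.09% to 24.1% with 1 library left out. Without the first or second acetyl replicate the H3K18bu share was 25.2% or 19.1%, and without the second H4K12ac replicate the H4K12bu share was 9.09%. Since most butyryl rows rested on a pileup of 1, a gene without a region cannot be called free of the mark.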
